A study of Mus musculus with 24 samples.

Results

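Sonic hedgehog (Shh), its receptors and coreceptors, the transducer Smo, the Gli transcription factors and the feedback inhibitor Hhip were followed in the jaws of mouse embryos at embryonic day 12.5. The 9 genes are Shh, Ptch1, Smo, Boc, Gas1, Hhip, Gli1, Gli2 and Gli3, chosen by name. They have 24 probe sets on the Affymetrix Mouse430_2 array. Each gene was read from its brightest probe set, that is, the highest averaged over 24 arrays, so 9 genes stand among 18193 with a probe set of their own. All 9 were among the 13837 genes that passed the filter on low values (above log2 6.07 on at least 2 arrays).

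The knockout (KO) embryos came from Wnt1-Cre;Alk5 fl/+ mice crossed with Alk5 fl/fl mice, on a background labelled C57B6. Wnt1-Cre acts in the cranial neural crest, which gives rise to most of the jaw mesenchyme, and Alk5 is the type I receptor for TGF-beta, so jaw epithelium, blood, vessels and muscle keep the gene. The sources name cleft palate and a defect of the calvaria for the knockouts. How the embryos on these arrays, at embryonic day 12.5, were recognised cannot be checked here. Controls were littermates, and their exact genotype and whether they carried Cre are not given in the sources used here. Mandible and maxilla were each cut into a distal and a proximal end, with 4 KO arrays and 2 control arrays for each of the 4 parts. Whether an array holds 1 embryo or a pool, and whether same-numbered arrays share embryos, is not stated, so the p-values measure only the spread between these arrays. The number of arrays limits the precision.

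In facial development, Shh is made by patches of oral and facial epithelium and is received mainly by the neural crest mesenchyme beneath. Ptch1 is the receptor that holds Smo inactive until a Hedgehog ligand binds it. Active Smo shifts the Gli factors from repressors towards activators. Gli1, Ptch1 and Hhip are direct targets of the pathway and their transcripts are widely used as its readout, whereas Boc and Gas1, which help cells to receive the ligand, are known in mouse to be transcribed less where signalling is strong.

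The promoters of Ptch1 and Hhip are shown because these receptor and inhibitor genes are feedback targets whose levels are set side by side below. Each is the 250 bases before the gene's start in RefSeq (GRCm38.p6), 5′ to 3′ on the gene's strand, with CpG dinucleotides in capitals. The Ptch1 stretch is chr13:63565736-63565985 and the Hhip stretch is chr8:80058009-80058258, both on the minus strand.
Ptch1: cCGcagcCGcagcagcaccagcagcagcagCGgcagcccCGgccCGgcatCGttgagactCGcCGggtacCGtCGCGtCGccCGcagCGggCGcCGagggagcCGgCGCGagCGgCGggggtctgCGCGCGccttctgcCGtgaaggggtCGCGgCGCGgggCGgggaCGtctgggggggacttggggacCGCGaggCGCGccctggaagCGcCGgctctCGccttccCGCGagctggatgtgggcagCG
Hhip: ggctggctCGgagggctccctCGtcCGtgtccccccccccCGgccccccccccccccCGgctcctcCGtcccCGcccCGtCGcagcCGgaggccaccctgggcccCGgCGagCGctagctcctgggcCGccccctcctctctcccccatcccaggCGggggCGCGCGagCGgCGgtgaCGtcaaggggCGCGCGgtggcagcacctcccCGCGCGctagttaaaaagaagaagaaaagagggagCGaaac
The Ptch1 stretch holds 41 CpG and the Hhip stretch 28, against a median of 6 over the 32851 promoters of the table. The Gli consensus TGGGTGGTC, searched on both strands, lay in the same window of 0 of the 6 members with an entry (Ptch1, Smo, Gas1, Hhip, Gli2 and Gli3) and of 0.225% of all promoters. With 1 mismatch allowed it lay in 0 of the 6 and in 5.79% of all promoters.

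Several arrays stand apart or go against their labels. The KO arrays fall into 2 sets by replicate number. Those numbered 1 and 2 had a 3′ over 5′ excess of 1.13 ± 0.277 log2 in the array's own Gapdh and Actb controls, a sign of RNA quality, against 0.0775 ± 0.0602 in those numbered 3 and 4 and 0.177 ± 0.0369 in controls (SD, n = 8 arrays each). All control arrays carry only numbers 1 and 2 and form a set of their own, so the effects of genotype and of array set cannot be told apart. By Xist and Kdm5d all 8 control arrays were male, and each KO set held 4 female and 4 male arrays. The proximal maxilla libraries labelled KO 1 (female) and KO 2 (male) differed in sex from the other 3 arrays of their number. The mandible libraries labelled control 2 go against their end labels. Their distal minus proximal differences over 13837 genes correlated at -0.78 with those of control 1, whereas all 10 correlations among the other numbers lay between 0.00282 and 0.72. Alx1 read 5.65 log2 in the library labelled control 2 distal mandible and 11.64 in its proximal partner, against 11.19 distal and 5.52 proximal in control 1. In the maxilla the end differences of control 2 correlated at between -0.35 and 0.11 with those of the other numbers, against -0.08 to 0.43 among the others. Otx2 read 7.84 log2 in the control 2 distal maxilla and 9.60 in its proximal partner, whereas it was higher distally in each of the other 5 numbers. The control 1 distal maxilla library also stood apart, with the epithelial genes Krt5 at 6.67 log2 and Krt14 at 8.14, against 11.75 and 11.92 in control 2. Epcam, another epithelial gene, went the other way, at 12.44 against 11.54. Differences over all 4 parts, and between jaws, average both ends and would keep their size if ends were exchanged, but in the fit behind the jaw contrasts the spread, and with it the p-values, would change. Alk5 itself (Tgfbr1) lay between 12.07 and 12.64 log2 on the KO arrays and between 11.98 and 12.69 on control arrays. Its probe set cannot be placed relative to the deleted part here, and tissue without Cre adds to its level.

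Knockout against control was compared on the mean of the 4 parts for each replicate number, 4 KO means against 2 control means. No Hedgehog gene passed the test, and neither did any other gene (0 called of 13837, background 0% called; 965 genes at unadjusted p under 0.05; limma, Benjamini-Hochberg). Of the 9, 6 had a positive difference, with a median of 0.03 log2 against -0.05 over all genes tested. Fewer cells of a type and less RNA per cell cannot be told apart in these bulk samples.

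Shh, the ligand, averaged 9.02, 9.26, 9.54 and 9.43 log2 in KO 1 to 4, against 8.68 and 8.92 in the controls. All 4 KO means lay above both control means, a separation found for 24.1% of all genes, and the difference of 0.51 ± 0.17 log2 (SE) had an adjusted p of 0.706. Boc, a coreceptor, was the other gene without overlap, at 9.31, 9.19, 10.20 and 10.15 log2 in KO 1 to 4, against 10.27 and 10.40 in the controls. Its difference was -0.62 ± 0.34 log2, with an adjusted p of 0.706, and on its brightest probe set knockouts 3 and 4 lay close to the controls. Hhip differed by -1.07 ± 0.77 log2 (adjusted p = 0.706), and the remaining 6 genes differed by between -0.29 and 0.41 log2.

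**Figure D1:**
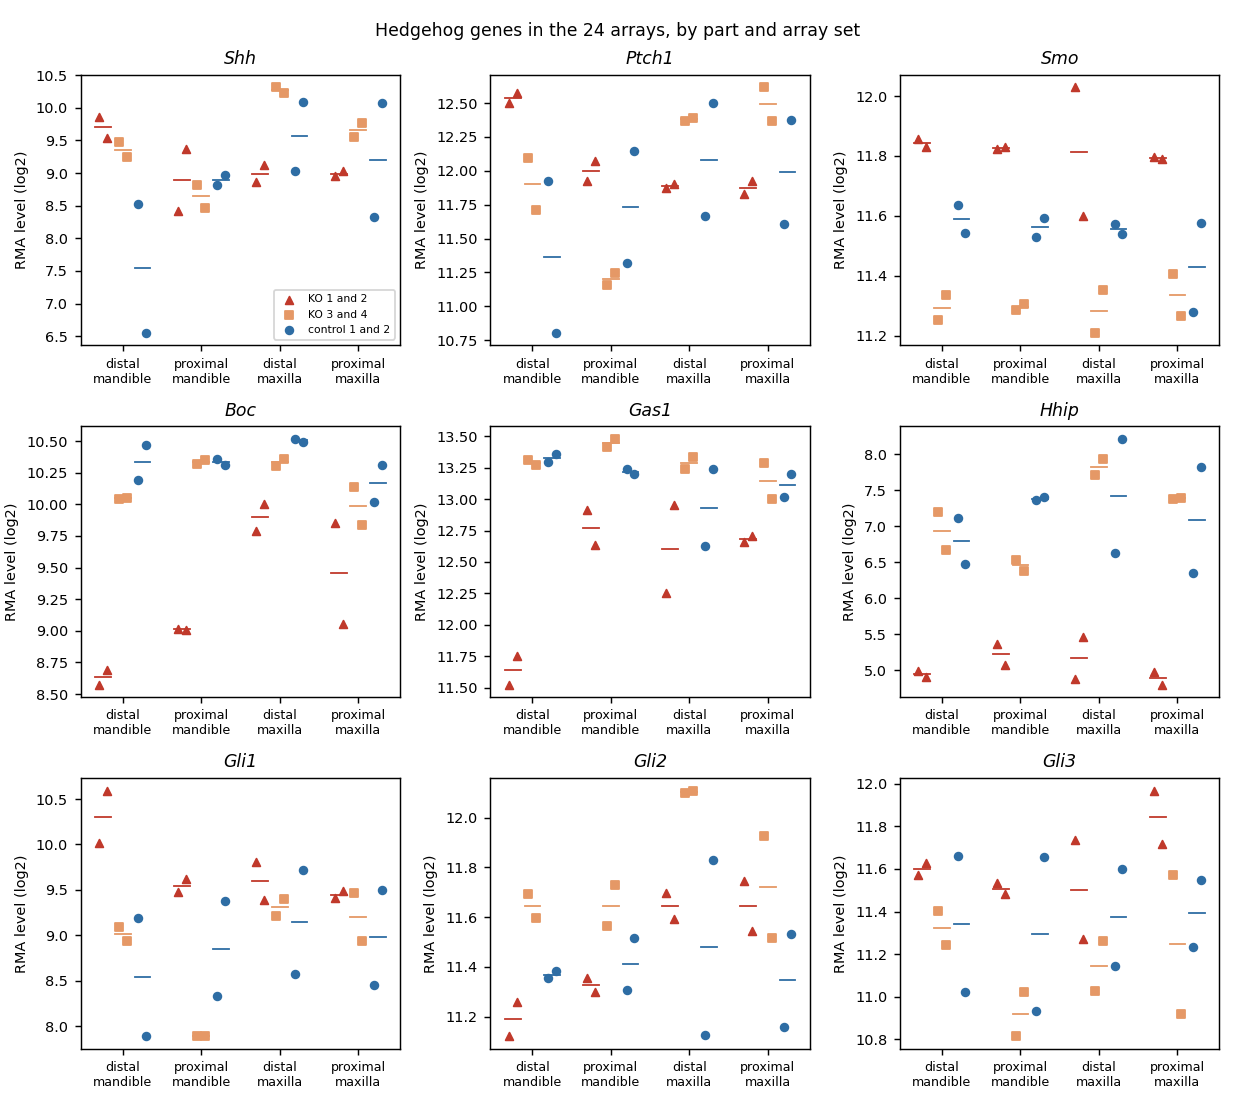
RMA level (log2) of each gene on each of the 24 arrays, by part of the jaw, with triangles for KO 1 and 2, squares for KO 3 and 4 and circles for controls 1 and 2 (left to right within a set) and a bar at the mean of each pair. Hhip and Boc lie lowest in KO 1 and 2, and the lowest Shh value, 6.55, is the library labelled control 2 distal mandible.

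The 2 sets of knockouts were then set against the same 2 control means separately, so these comparisons share their controls. Knockouts 1 and 2 differed from control at 5 of the 9 genes, of which Gli1 and Smo rose and Hhip, Boc and Gas1 fell (4 without Hhip, which passed the filter on low values through the other arrays only). In that comparison 52.6% of all genes were called (20.9% higher and 31.7% lower), so the share of Hedgehog genes is close to the background. Knockouts 3 and 4 differed at 0 of the 9 (limma; 3 at unadjusted p under 0.05), with 1.56% of all genes called and 3713 at unadjusted p under 0.05.

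Hhip, the secreted inhibitor that binds Hedgehog ligands, was lower in knockouts 1 and 2. Its 8 arrays there ran from 4.80 to 5.47 log2 (median 4.98), against 6.34 to 8.22 in controls (median 7.25). All 8 lay below the level of the low-value filter and below every control array, a separation found for 30.5% of all genes. The fitted difference was -2.12 ± 0.21 log2 (adjusted p = 0.0025, and 0.0687 with sex as a covariate). Levels below the filter are poorly measured, and against the filter level of 6.07 Hhip was at least 2.14-fold lower. The other 3 Hhip probe sets also averaged lower there, by -0.45, -1.01 and -1.08 log2. They were above the filter level on 19, 10 and 1 of the 24 arrays, in that order. At -1.01 and -1.08 every array of knockouts 1 and 2 lay below it, so these sizes are poorly measured too. In knockouts 3 and 4 Hhip ran from 6.38 to 7.94 log2 (median 7.30), within the range of the controls, and differed by -0.02 ± 0.22 log2.

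Gli1, the Gli factor that is itself a target, averaged 9.68 and 9.77 log2 in knockouts 1 and 2, against 8.64 and 9.12 in the controls. It rose by 0.84 ± 0.17 log2, or 1.80-fold (adjusted p = 0.0149), opposite in sign to Hhip. In knockouts 3 and 4 it averaged 8.92 and 8.79 log2, between the 2 controls. Gli1 has 1 probe set here, so no other reading of it was available. The adjusted p was 0.0933 without KO 1, 0.101 without KO 2 and 0.224 with sex as a covariate.

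Ptch1, the receptor and a target as well, averaged 12.03 and 12.12 log2 in knockouts 1 and 2 and 12.06 and 11.93 in knockouts 3 and 4, against 11.63 and 11.96 in the controls. The differences of 0.28 ± 0.13 and 0.20 ± 0.13 log2 did not pass the test (adjusted p = 0.127 and 0.379). A dimmer Ptch1 probe set averaged 8.90 log2 in knockouts 1 and 2 and 7.26 in knockouts 3 and 4, against 6.93 in controls, and the dimmest was lower in knockouts 1 and 2, by -0.21 log2. The probe sets of Ptch1 thus disagree on the size and the direction of the difference.

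The coreceptors Boc and Gas1 both fell in knockouts 1 and 2. Boc ran from 8.58 to 10.005 log2 on those 8 arrays (median 9.03), against 10.017 to 10.52 in controls (median 10.34). Every array of knockouts 1 and 2 lay below every control array for Boc as well, and the difference was -1.09 ± 0.09 log2, 2.12-fold lower (adjusted p = 0.00181). A dimmer Boc probe set, above the filter on 24 arrays, was lower by less there, at -0.20 log2. It was lower by more in knockouts 3 and 4, at -0.47 log2, so the probe sets disagree on which knockouts fell further. Gas1 ran from 11.52 to 12.95 log2 in knockouts 1 and 2 (median 12.64), against 12.63 to 13.36 in controls (median 13.22), and the ranges overlapped. Its difference was -0.72 ± 0.11 log2, 1.65-fold lower (adjusted p = 0.0063), and all 3 Gas1 probe sets were lower. Gas1 had an adjusted p of 0.0525 without KO 1 and 0.0638 with sex as a covariate. In knockouts 3 and 4 the brightest probe sets of Boc and Gas1 differed by -0.16 ± 0.07 and 0.15 ± 0.09 log2, neither past the test.

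Smo, the membrane protein that relays the signal, ran from 11.60 to 12.03 log2 in knockouts 1 and 2, against 11.28 to 11.64 in controls. It rose by 0.29 ± 0.08 log2, or 1.22-fold (adjusted p = 0.0328), but a second Smo probe set above the filter differed by -0.31 log2, and in knockouts 3 and 4 the brightest differed by -0.23 ± 0.05. The Smo call was lost without any 1 of the 4 replicate numbers (adjusted p from 0.0577 to 0.127), with arrays centred on their median, and with sex as a covariate. Gli2, the main activator, and Gli3, the main repressor of the pathway, were not called. Gli2 differed by 0.05 ± 0.13 log2 in knockouts 1 and 2 and 0.38 ± 0.13 in knockouts 3 and 4, and Gli3 by 0.26 ± 0.11 and -0.19 ± 0.09. The other 2 Gli3 probe sets differed by -0.05 and -1.08 log2 in knockouts 1 and 2. Shh differed by 0.34 ± 0.13 log2 in knockouts 1 and 2 (adjusted p = 0.0826) and by 0.68 ± 0.11 in knockouts 3 and 4 (adjusted p = 0.0647), the only gene of the 9 above both control means in all 4 knockouts. Without control 2, Shh passed in both sets (0.46, adjusted p = 0.0391, and 0.80, adjusted p = 0.0203), as did Ptch1 in knockouts 1 and 2 (0.44, adjusted p = 0.0213) and Gli2 in knockouts 3 and 4 (0.54, adjusted p = 0.0305). The control side is then 1 mean, the spread comes from the knockouts, and 47.5% and 9.96% of all genes were called in the 2 sets.

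**Figure D2:**
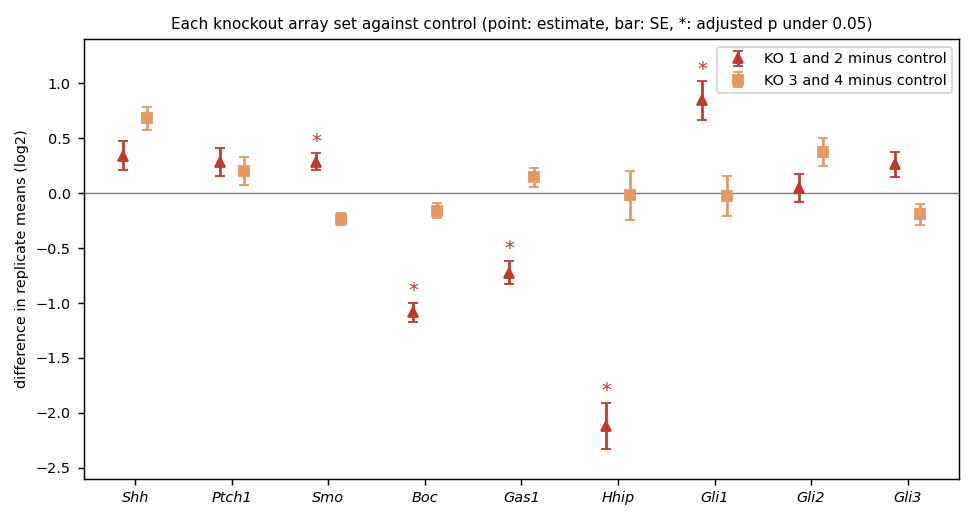
Difference in mean log2 level from control for knockouts 1 and 2 (triangles) and knockouts 3 and 4 (squares), with bars for the SE and a star where the adjusted p is under 0.05. The 5 starred genes are all in knockouts 1 and 2, from Hhip, fitted at -2.12 with levels below the filter, to Gli1 at 0.84 log2.

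Knockouts 1 and 2 were also set against knockouts 3 and 4, a comparison added after the data were seen. They differed at 8 of the 9 genes, all but Ptch1, where 64.9% of all genes were called. The count was 7 without Hhip, which passed the filter on low values through the other arrays only. Hhip, with its levels in knockouts 1 and 2 below the filter, was at least 2.11-fold lower (fitted difference -2.10 ± 0.07 log2). Boc was lower by 0.93 log2 (-0.93 ± 0.07) and Gas1 by 0.87 (-0.87 ± 0.08). Gli1 was higher by 0.87 ± 0.08, Smo by 0.52 ± 0.07 and Gli3 by 0.46 ± 0.09, while Shh (-0.34 ± 0.10) and Gli2 (-0.33 ± 0.07) were lower. These are readings of the brightest probe sets. Another Smo probe set above the filter went the other way (10.64 log2 in knockouts 1 and 2, 10.98 in knockouts 3 and 4). So did those of Boc (9.35 and 9.08), Gli2 (10.02 and 9.90) and Gli3 (10.97 and 11.22, 6.27 and 7.02). The other Gas1 and Hhip probe sets went the same way. The dimmer Ptch1 probe sets averaged 8.90 and 7.26, and 6.66 and 6.96. Shh did not pass without KO 1, KO 3 or KO 4 (adjusted p from 0.0591 to 0.140) nor Gli2 without KO 3 (0.0703), and under the mean of all probe sets Gli3 turned to -0.18 and Boc (-0.17) and Gli2 (-0.10) did not pass. The 3′ excess separates the same 2 sets, and its part in these differences was not tested.

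Other genes of the pathway were counted from fixed lists. In knockouts 3 and 4, 0 of 7 genes of ligand release, 0 of 3 other receptors, 0 of 13 relay and cilium genes and 0 of 14 facial target genes passed the test. In knockouts 1 and 2, where 52.6% of all genes were called, 4 of 7 release genes were called lower, with none higher. These were the other ligands Dhh (-0.41 log2) and Ihh (-0.32) and the release factors Scube2 (-0.43) and Scube3 (-0.37). Dhh, Ihh and Scube2 averaged 5.82, 5.66 and 5.53 log2 there, below the filter level of 6.07. In controls they averaged 6.22, 5.98 and 5.97, so the sizes of these falls are poorly measured. Scube3 averaged 9.69 log2, against 10.06 in controls. The lipoprotein receptor Lrp2 (0.24) rose, 1 of 3 receptors. Lrp2 averaged 6.18 log2 in knockouts 1 and 2 and 5.94 in controls, close to the filter level, so its size is poorly measured too. Of the 13 relay genes 4 rose, among them Evc (0.91), a ciliary partner of Smo, and Sufu (0.39), which restrains the Gli factors, and 5 fell, among them Spop (-0.42) and Gpr161 (-0.37). The 9 of 13 relay genes, like the 4 of 7 release genes, stand against that 52.6%. Of the 14 facial targets Foxd1 rose (1.08) and 5 fell, namely Osr2 (-2.45), a palate transcription factor, Pax1 (-1.22), Foxf1 (-0.83), Sfrp1 (-0.70) and Bcl2 (-0.59). The median difference of these targets was -0.11 log2, against -0.06 over all genes.

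Markers of other cell types were read in the same sets. Their counts stand against 20.9% of all genes called higher and 31.7% lower in knockouts 1 and 2. In knockouts 3 and 4, 1.56% of all genes were called. The 7 erythroid markers averaged 11.14 to 11.90 log2 over knockouts 1 and 2 and 9.68 to 10.14 over knockouts 3 and 4, against 10.09 to 10.34 in controls, and 6 of 7 rose in knockouts 1 and 2. The 8 endothelial markers averaged 8.04 to 8.94 log2 in knockouts 1 and 2 and 8.98 to 9.61 in knockouts 3 and 4, against 9.09 to 9.44 in controls, and 7 of 8 fell in knockouts 1 and 2. The 16 epithelial markers, which mark the tissue that makes Shh, averaged 9.56 to 10.41 log2 in knockouts 1 and 2 and 9.88 to 10.70 in knockouts 3 and 4, against 9.11 to 10.51 in controls. Of these 5 rose and 1 fell in knockouts 1 and 2, and 0 were called in knockouts 3 and 4, where their median difference was 0.49 log2. No listed erythroid, endothelial or epithelial marker was below the filter level on every array. The 10 mesenchymal markers, which mark the tissue that receives Shh, averaged 10.74 to 11.53 log2 in knockouts 1 and 2 and 11.22 to 11.65 in knockouts 3 and 4, against 10.56 to 11.50 in controls, and 4 fell and 1 rose in knockouts 1 and 2. The part of any of these in the Hedgehog differences was not tested.

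Within each part, all 4 KO arrays were compared with both control arrays in a fit of all 24. None of the 9 genes passed the test in any part, where between 0 and 2 genes of 13837 did (0% in the proximal mandible, 0.0145% in the distal mandible and 0.00723% in each part of the maxilla; between 676 and 1364 at unadjusted p under 0.05). The largest difference was Shh in the distal mandible. Shh read 9.86, 9.54, 9.47 and 9.25 log2 in KO 1 to 4, against 8.53 and 6.55 in the libraries labelled control 1 and control 2. The KO arrays lay above both, a separation found for 25.6% of all genes, and the difference was 1.99 ± 0.54 log2 (adjusted p = 0.255). Without the 2 mandible libraries of control 2 it was 1.00 ± 0.63 log2 (adjusted p = 0.921). Gli1 differed there by 1.12 ± 0.56 log2 and Ptch1 by 0.85 ± 0.38, and without those libraries by 0.47 ± 0.70 and 0.29 ± 0.44. Boc was below both controls there on all 4 KO arrays, at 8.58, 8.69, 10.05 and 10.05 log2, against 10.20 and 10.47. Its difference was -0.99 ± 0.45 log2 (adjusted p = 0.499), and -0.86 ± 0.61 without those libraries.

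In the proximal mandible Hhip was the gene with the largest difference, -1.55 ± 0.95 log2 (adjusted p = 0.766). It read 5.37, 5.07, 6.53 and 6.38 log2 in KO 1 to 4, against 7.37 and 7.41 in the controls. All 4 KO arrays lay below both control libraries, a separation found for 20.6% of all genes. It depends on the end label of control 2, whose distal library read 6.47, below KO 3. Without the 2 mandible libraries of control 2 the difference was -1.53 ± 1.30 log2 (adjusted p = 0.980). In the distal maxilla Boc was below both controls on all 4 KO arrays, at 9.79, 10.005, 10.30 and 10.36 log2, against 10.52 and 10.49 on the control arrays (adjusted p = 0.903), where 16.3% of all genes separated the groups. The control 2 library labelled proximal maxilla read 10.31, below KO 4, so this separation depends on its end label too. Without control 2 the difference was -0.40 log2 (adjusted p = 0.998).

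The jaws were compared within each genotype, from a fit with a mean for each part in each array set. In the knockouts Boc was lower in the mandible, by -0.41 ± 0.10 log2 (mandible minus maxilla, adjusted p = 0.0174), where 7.71% of all genes were called. Boc read 9.02 and 9.01 log2 in the proximal and 8.58 and 8.69 in the distal mandible of knockouts 1 and 2, against 9.85, 9.05, 9.79 and 10.005 in the maxilla. In knockouts 3 and 4 Boc ran from 10.05 to 10.35 log2 in the mandible, against 9.84 to 10.36 in the maxilla, with a difference of 0.033. The difference thus lay in knockouts 1 and 2, at -0.85 ± 0.14, although the difference between the sets was not past the test (-0.89 ± 0.19, adjusted p = 0.112, and -0.72 with adjusted p = 0.0349 without KO 1, where 3.98% of all genes were called). The Boc call over both sets was lost without KO 3 (adjusted p = 0.250) or KO 4 (0.160).

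The other 8 genes were not called between the KO jaws, and Gli2 came nearest at -0.33 ± 0.10 log2 (adjusted p = 0.0516). Leaving out control 1 or control 2 takes the spread from the KO arrays alone. Gli2 (adjusted p = 0.00902), Hhip (0.0199) and Ptch1 (0.0314) then passed as well, with 11.4% of all genes called. For Ptch1 this pools opposite signs, 0.36 and 0.41 log2 in KO 1 and 2 and -0.87 and -0.90 in KO 3 and 4. Hhip differed by 0.25, -0.14, -0.68 and -1.14 log2 in KO 1 to 4, and its levels in knockouts 1 and 2 lay below the filter. Without only the 2 mandible libraries of control 2, Boc alone passed (adjusted p = 0.0261). In the control jaws 0 of the 9 passed, with 0.687% of all genes called (1577 at unadjusted p under 0.05). Shh averaged 8.22 ± 1.12 log2 in control mandible and 9.39 ± 0.86 in control maxilla (SD, n = 4 each), a difference of -1.17 ± 0.41 (adjusted p = 0.244). It was -0.71 ± 0.41 without the 2 mandible libraries of control 2. With control 2 alone, without control 1, it was -2.33 (adjusted p = 0.0014), and Ptch1 (-0.96), Gli1 (-0.98) and Hhip (-1.09) passed too, with 1.9% of all genes called. The difference between genotypes in the jaw contrast was not past the test for any of the 9 (smallest adjusted p = 0.995), and 0 genes of all were called (0%; 570 at unadjusted p under 0.05). With 1 control left, this difference was 2.00 log2 for Shh without control 1 and -1.19 for Hhip without control 2. The Hhip levels in knockouts 1 and 2 lay below the filter.

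Ptch1 and Gli1 differed between the jaws in opposite directions in the 2 KO sets. Ptch1 read 12.50, 12.57, 11.93 and 12.07 log2 in the mandible of knockouts 1 and 2, against 11.87, 11.90, 11.83 and 11.92 in their maxilla. In knockouts 3 and 4 it read 12.09, 11.71, 11.16 and 11.24 in the mandible, against 12.37, 12.39, 12.62 and 12.37 in the maxilla. For Ptch1 the mandible was thus the higher jaw in knockouts 1 and 2 and the lower in knockouts 3 and 4. There was no overlap in either, as was so for 10.2% and 7.6% of all genes. In knockouts 1 and 2 the nearest arrays read 11.9259 and 11.9215. Gli1 differed by 0.14 and 0.67 log2 in KO 1 and 2 and by -0.85 and -0.75 in KO 3 and 4. Its arrays overlapped between the jaws in both sets. These are readings of the brightest probe sets.

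With the spread taken from the 16 KO arrays alone, a choice made after the data were seen, the difference between the sets in this contrast was 1.27 ± 0.13 log2 for Ptch1 (adjusted p = 0.0027) and 1.21 ± 0.21 for Gli1 (adjusted p = 0.0331). In that fit 0.477% of all genes were called. It was 1.27 ± 0.25 for Shh (adjusted p = 0.0688) and 0.96 ± 0.21 for Hhip (adjusted p = 0.0859), whose levels in knockouts 1 and 2 lay below the filter. With the spread taken from all 24 arrays none of the 9 passed (smallest adjusted p = 0.112; 0.094% of genes called). Within knockouts 3 and 4 of the KO-only fit, the mandible was lower for Shh (-0.97 ± 0.18), Ptch1 (-0.89 ± 0.09), Gli1 (-0.80 ± 0.15) and Hhip (-0.91 ± 0.15), with adjusted p from 0.00052 to 0.0131 and 3.94% of genes called. Within knockouts 1 and 2 Ptch1 was higher in the mandible (0.39 ± 0.09, adjusted p = 0.0254), with 9.42% of genes called. The mean of the epithelial markers was lower in the mandible in KO 1, 3 and 4 (by -0.39, -0.44 and -0.38 log2) and differed by 0.03 in KO 2, and the part of epithelium in these differences was not tested.

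**Figure D3:**
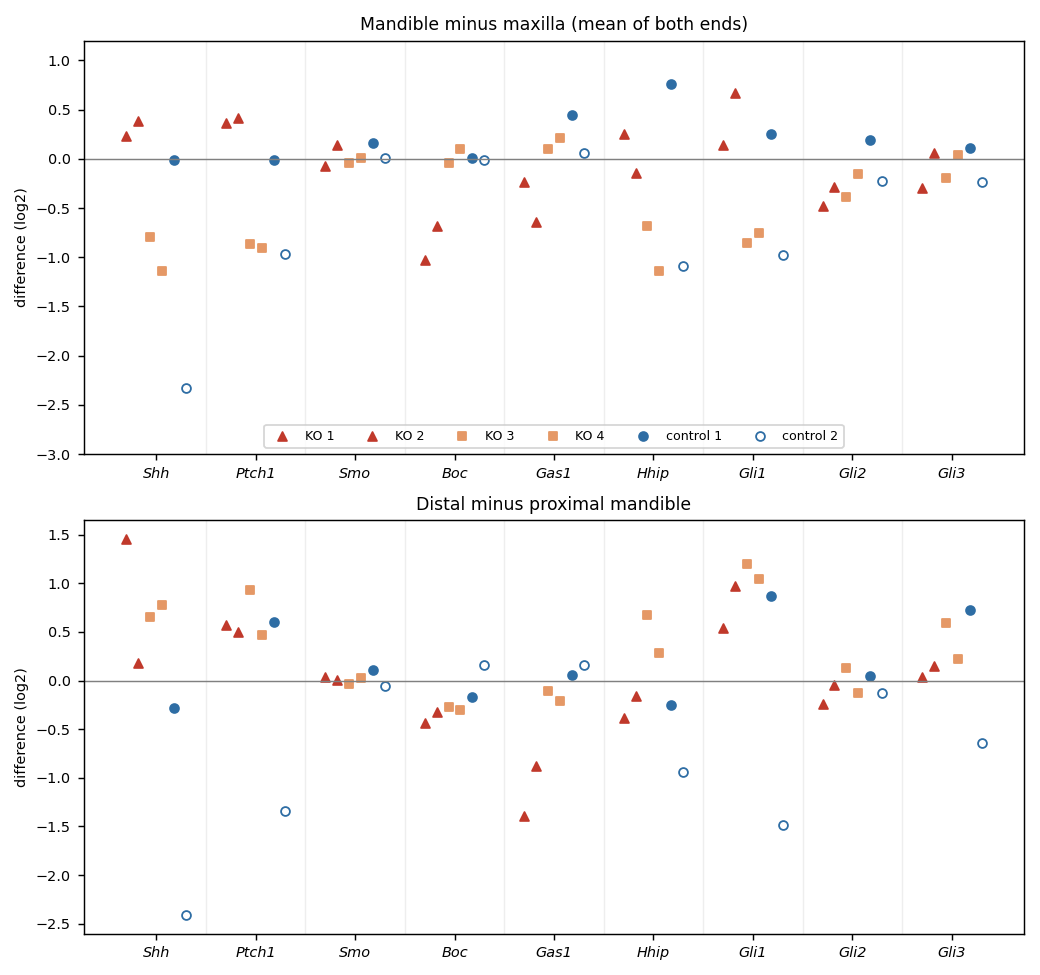
Difference in log2 level between the jaws (upper panel, mean of both ends) and between the ends of the mandible (lower panel) for each replicate number, with triangles for KO 1 and 2, squares for KO 3 and 4, filled circles for control 1 and open circles for control 2. Shh, Ptch1 and Gli1 lie above 0 between the jaws in KO 1 and 2 and below 0 in KO 3 and 4, and in the mandible the library labelled control 2 gives the lowest end difference for Shh, Ptch1 and Gli1.

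Between the ends of the KO mandible, Gas1 was lower distally, by -0.65 ± 0.15 log2 (distal minus proximal, adjusted p = 0.0489), where 1.09% of all genes were called. Gas1 read 11.52, 11.75, 13.31 and 13.27 log2 in the distal mandible of KO 1 to 4, against 12.91, 12.63, 13.42 and 13.48 in the proximal mandible. Each of the 4 numbers was lower distally, by -1.39 and -0.88 log2 in knockouts 1 and 2 and by -0.11 and -0.21 in knockouts 3 and 4. Without the 2 mandible libraries of control 2 the same difference had an adjusted p of 0.0701, and it was 0.217 without KO 1, 0.637 without KO 3 and 0.544 without KO 4. The mean of the mesenchymal markers differed between the same ends by -0.52, -0.30, 0.07 and -0.08 log2 in KO 1 to 4, and its part in the Gas1 difference was not tested.

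Gli1, Ptch1 and Shh were higher distally in all 4 knockouts, without passing the test in the fit of 24 arrays. Gli1 read 10.02, 10.59, 9.09 and 8.94 log2 distally in KO 1 to 4, against 9.48, 9.62, 7.89 and 7.89 proximally. The differences were 0.94 ± 0.33 log2 for Gli1 (adjusted p = 0.270), 0.62 ± 0.25 for Ptch1 (adjusted p = 0.362) and 0.77 ± 0.41 for Shh (adjusted p = 0.542). With the spread from the KO arrays alone, as when control 1 or control 2 is left out, the 3 genes passed, at adjusted p of 0.0058, 0.0045 and 0.0455, with 3.11% of all genes called. The epithelial marker mean was higher distally by 0.44, 0.14 and 0.19 log2 in KO 1, 2 and 4 and differed by -0.003 in KO 3.

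In the control mandible the libraries labelled control 1 gave the same sign for Gli1 (0.87 log2) and Ptch1 (0.61) but not Shh (-0.28), and those labelled control 2 gave -1.49, -1.34 and -2.41. None of the 9 genes passed between the ends of the control mandible (0% of genes called; 36 at unadjusted p under 0.05), nor without the control 2 libraries (0.065%). None passed between the ends of the KO maxilla (0.065%; 842 at unadjusted p under 0.05), of the control maxilla (0%; 401 at unadjusted p under 0.05) or in the difference between genotypes (0.00723%; 511 at unadjusted p under 0.05). Without control 1, Shh (-2.41) and Ptch1 (-1.34) passed between the control mandible ends, in the libraries that go against their labels (0.426% of all genes called), and Shh (1.73), Ptch1 (0.89) and Gli1 (1.17) in the difference between genotypes (1.47%). In the KO maxilla the largest difference was Boc at 0.39 ± 0.14 log2 (adjusted p = 0.547).

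Among themselves the genes varied with Shh to different degrees. Correlations were taken over the 24 arrays after the mean of each array set was taken off. They share parts and control libraries and are given as descriptions. Ptch1 and Gli1 followed each other at r = 0.95, and within each set at 0.88 in knockouts 1 and 2, 0.94 in knockouts 3 and 4 and 0.98 in controls (8 arrays each). Shh correlated at 0.85 with Ptch1 and 0.78 with Gli1. With Gli3 it correlated at 0.34, with Gli2 at 0.29, with Smo at 0.06, with Boc at -0.15 and with Gas1 at -0.35. The value for Gli2 was -0.60 in knockouts 1 and 2 and 0.65 in knockouts 3 and 4. Hhip correlated with Shh at 0.73 over all arrays, with 0.96 in knockouts 3 and 4 and 0.79 in controls, but -0.34 in knockouts 1 and 2, where its levels lay below the filter. Smo varied least, with an SD of 0.10 log2 within sets, and Shh most, with 0.79.

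Gas1 and Boc went against Ptch1 in the knockouts. Gas1 correlated with Ptch1 at -0.86 in knockouts 1 and 2 and -0.63 in knockouts 3 and 4, and at -0.03 in controls. For Boc the values were -0.78, -0.35 and -0.07. In knockouts 1 and 2 the distal mandible had the highest mean of the 4 parts for Ptch1 and Gli1 and the lowest for Gas1 and Boc. The same 2 libraries stood apart in single markers of other cells. Foxa2, a factor of endoderm and floor plate, read 7.89 and 8.27 log2 there, against 5.39 to 5.64 in the other 4 distal mandible libraries. Prrx1, a mesenchymal factor, read 12.06 and 12.30 log2 there, against 13.22 to 13.31 in those 4. Foxa2 also read 6.99 log2 in the KO 2 proximal mandible. The list that holds Foxa2, of brain, eye and floor plate markers, went the other way. Its mean was lower in the distal than the proximal mandible, by -0.39 log2 in KO 1 and -0.51 in KO 2. The part of these markers in the pattern was not tested.

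**Figure D4:**
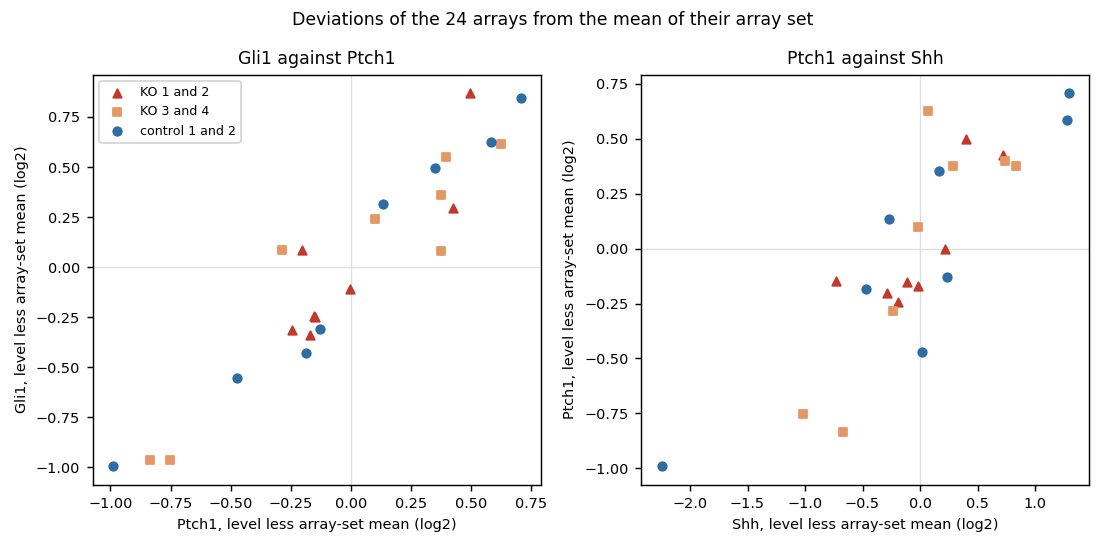
Deviation of each of the 24 arrays from the mean of its array set, in log2, for Gli1 against Ptch1 (left) and Ptch1 against Shh (right), with triangles for KO 1 and 2, squares for KO 3 and 4 and circles for controls. The points rise together in both panels, at r = 0.95 and 0.85, and the array with the lowest Shh, at -2.25 from its set mean, is the library labelled control 2 distal mandible.

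Outside the 9, the genes most like Shh by the same measure were Prss22 (0.89), Adamts18 (0.82), Asprv1 (0.81), Dapl1 (0.79) and Rhpn2 (0.79). Those most like Ptch1 were Pltp (0.86), Pkp4 (0.84), Dapl1 (0.84), Foxf1 (0.83) and Thumpd2 (0.81). Those most like Gli1 were Pkp4 (0.92), Sh3d19 (0.90), Pltp (0.86), Dapl1 (0.86) and Fads2b (0.86). Dapl1 stood in all 3 lists, and Foxf1, a forkhead factor on the list of facial Hedgehog targets, was the only gene among these from that list.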

How the data were processed

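Total RNA of the 24 samples was labelled and hybridised to Mouse430_2 arrays. The deposited values are log2 expression levels per probe set that the authors made with RMA, per the submitters' processing notes; the RMA version and whether all arrays were processed together are not given in the sources used here. The 45101 probe sets include 64 control features, which were only used to describe arrays; 34945 carry 1 symbol, 932 several and 9160 none in GEO's platform annotation. The brightest probe set, by its mean over all arrays, stood for each of 18193 genes, and genes above the 40th percentile of values (6.07) on at least 2 arrays were tested. Tests were 2-sided limma 3.58.1 fits (R 4.3.3) over 13837 genes with Benjamini-Hochberg adjustment at 0.05. Whole-genotype comparisons used means over the 4 parts for each replicate number, part comparisons 8 group means, and jaw, end and interaction contrasts 12 means of part and array set. The named genes are every member, the called genes of the pathway lists, and the 5 genes most like Shh, Ptch1 and Gli1. Members and lists were chosen with earlier results of these data known. The fits were also run on simulated data with independent noise around the mean of each gene. That data held no array-set effect and no exchanged libraries, so it cannot vouch for the calls given here. Alternatives covered centring, the filter, probe-set means, sex and 3′ excess covariates, array sets, the replicate block and each number left out; comparisons between KO sets, fits of KO arrays only and fits without the control 2 mandible libraries were added after the data were seen. No 2 arrays held identical values.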

Additional observations from a re-analysis of the deposited data

Results flagged for a closer look

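On the brightest probe sets, knockouts 1 and 2 differed from knockouts 3 and 4 at 8 of the 9 genes by a test of the difference itself. The count was 7 without Hhip, whose levels in knockouts 1 and 2 lay below the filter, and 64.9% of all genes were called. The values were -2.10 for Hhip, -0.93 for Boc, -0.87 for Gas1, -0.34 for Shh, -0.33 for Gli2, 0.87 for Gli1, 0.52 for Smo and 0.46 for Gli3 (log2). Other probe sets above the filter went the other way for Boc, Gli2, Smo and Gli3. The jaw contrast differed between the same sets for Ptch1, by 1.27 log2, and for Gli1, by 1.21, in the fit of KO arrays alone. There 0.477% of all genes were called. Gli1 in the proximal maxilla had 1 array far from the other 3, KO 4 at 8.94 log2 against 9.41 to 9.48, with a gap of 0.868 of the group's range against Dixon's 0.829 for 4 arrays. It was 1 of 36 groups of 4 looked at, and chance marks about 1 group in 20.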

How the results depend on the processing

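The counts below are of the 9 Hedgehog genes that passed the test. Knockout against control over the 4 parts gave 0, and 5 with a replicate block (46.2% of all genes) or 1 with the 3′ excess as a covariate (4.91%). Knockouts 1 and 2 against control gave 5 (52.6% of all genes), and 1 (Boc) with a sex covariate (18.2%). Knockouts 3 and 4 gave 0 (1.56%). With a replicate left out 1 side of these comparisons is 1 mean, and the calls of both sets changed. By part the counts were 0, and with the replicate block 2 in the proximal mandible, 5 in the distal mandible, 3 in the proximal maxilla and 2 in the distal maxilla, where 43.2%, 48.5%, 36% and 41.4% of all genes were called. With knockouts 1 and 2 only they were 2, 6, 3 and 2 in the same order (39.1%, 48.6%, 28.5% and 34.9% of all genes). The distal mandible had 1 with the 3′ excess as a covariate (2.56%). The numbers were not taken to pair the arrays: deviations of same-numbered KO and control arrays in a part correlated between -0.50 and 0.22. Deviations of the parts of 1 number correlated between 0.066 and 0.35 in knockouts 3 and 4, -0.31 and 0.22 in knockouts 1 and 2, and -0.68 and 0.58 in controls, so whether they share embryos is not settled. The block leaves knockouts 1 and 2 alone to be set against control. Mandible against maxilla in KO gave 1 (7.71% of all genes), 2 with the block (6.56%), 0 with 8 group means (2.36%) and 0 with knockouts 3 and 4 only (0.658%). It gave 4 with KO arrays only (11.4%) and 4 with these and the block (10.3%). KO arrays numbered 1 and 2 only gave 3 (9.42%), and those numbered 3 and 4 only gave 4 (3.94%). With a replicate left out the count lay between 0 and 4 (1.08% to 11.4%). Boc turned to 0.033 log2 there with knockouts 3 and 4 only, in either fit. Distal against proximal in the KO mandible gave 1 (Gas1, adjusted p = 0.0489; 1.09% of all genes). It gave 0 with arrays centred, no filter, the mean of all probe sets, a sex covariate, the block, 8 group means, knockouts 3 and 4 only, or without the control 2 mandible libraries. In those 0.0145% to 1.47% of all genes were called. It gave 4 with KO arrays only (3.11%), 3 with these and the block (2.69%) and 2 with KO arrays numbered 3 and 4 only (1.2%). With a replicate left out it gave between 0 and 4 (0.0723% to 3.11%). Calls also appeared between the control jaws, between the control mandible ends, and in the genotype by jaw and genotype by end terms. They came only with a control left out, where each part has 1 control array. The difference between KO sets gave 8, or 7 without Hhip (64.9% of all genes). It gave 6 with the mean of all probe sets (65.8%), where Gli3 turned to -0.18 log2. It gave 8 with arrays centred (63.2%), no filter (53.5%) or a sex covariate (62.7%), and fewer in some fits with a replicate left out. The KO set by jaw term gave 0 (0.094% of all genes) and 2 with KO arrays only (0.477%), and it also changed with a replicate left out. The cause of these changes was not tested. Over all genes, knockouts 1 and 2 against control gave 7279 and between 2522 and 7392 in the alternatives, knockouts 3 and 4 gave 216 and between 0 and 1378, the KO jaws 1067 and between 91 and 1579, and the KO mandible ends 151 and between 2 and 431. Of 147 values that did not pass, 79 changed sign and 45 passed in at least 1 alternative.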
